A study of Malus domestica with 18 samples.

Results

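Shoots of the apple (Malus domestica) cultivar Husveti rozmaring that had grown for 4 week on the cytokinin benzylaminopurine riboside (BAR) were compared with shoots of the same age on cytokinin-free medium. The comparison takes the 3 libraries labelled BAR, 4 week and the 3 labelled Control, 4 week, which makes 6 of the 18 libraries of the series. The dose of BAR was 4.5 µM, and the control shoots received no cytokinin. Neither group was free of hormones, since both media also contained indole butyric acid (an auxin, 0.49 µM) and gibberellic acid (0.58 µM). The in vitro explants measured 20 mm when they were placed on these media, and the cultures that supplied them had been kept without cytokinin beforehand. The other libraries are from shoots on thidiazuron (TDZ) at the same dose and time and from all 3 media at 48 hour. Poly(A) RNA of axillary shoots was sequenced. The labels call the 3 libraries of a group biological replicates with no word on separate vessels, so p-values measure only the spread between these samples.

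Cytokinins are adenine-derived or urea-type plant hormones that promote shoot growth and the release of axillary buds. They bind histidine kinase receptors at cell membranes, and the signal passes through histidine phosphotransfer proteins to type-B response regulators, which are transcription factors. Among the genes these activate are the type-A response regulators, which damp the same signal. Cytokinin dehydrogenases degrade the hormone, and LOG enzymes turn its nucleotide form into the active base. BAR is the riboside of a synthetic adenine-type cytokinin, and it is used to multiply shoots in tissue culture.

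The 6 libraries held 14646040 to 21279097 counts assigned to genes. Levels below are CPM, the counts of a gene scaled to a common library size that takes in a scaling factor per library, which was 1.10 to 1.18 in the BAR libraries and 0.876 to 0.880 in the control libraries. The BAR libraries resembled each other (Spearman correlation across genes 0.969 to 0.986). Control replicate 1 stood apart from control replicates 2 and 3 (0.914 and 0.919, against 0.988 between those replicates). It also lay closer to the BAR libraries, at 0.867 to 0.893, than control replicates 2 and 3 did, at 0.799 to 0.817. For the median gene it stood 0.21 of the way from the controls to BAR among genes called higher and 0.23 of the way among genes called lower. These genes were called with this library in the fit, which favours genes where it lay far from BAR. On the main axis of variation over all genes tested (76.7% of the variance, by library totals) control replicate 1 stood at -58.8. Control replicates 2 and 3 stood there at -151.9 and -149.5, and the BAR libraries at 114.7 to 124.6. The name of BAR replicate 3 is that of BAR replicate 1 with the letter b added. These 2 libraries differed by more than counting error (chi-square per degree of freedom 15.9, against 7.64 between control replicates 2 and 3). They were the closest pair of BAR libraries, since BAR replicate 2 gave 39.1 against replicate 1 and 43.2 against replicate 3. Repeat libraries of 1 sample can also differ by more than counting error, so these values cannot show that the 2 are separate samples. Each was counted as a sample because the labels list it as a replicate. The markers of the labelled tissue were present, since light harvesting proteins summed to 4630 to 5860 CPM on BAR and to between 5570 and 15700 CPM in the control. Casparian strip proteins, which mark roots, summed to less than 1 CPM in every library of both groups. The wider list of genes named for roots, which holds SCARECROW, SHORT-ROOT, FEZ and SOMBRERO genes as well, summed to 107, 87.1 and 115 CPM on BAR and 110, 66.6 and 60.8 CPM in the control, with 1 of 4 tested higher (median 1.88) and 3 without control replicate 1. The gene SHOOT MERISTEMLESS (DVH24_016931) held 3 counts over the BAR libraries and 0 over the control libraries, so it was not tested. In shoots of mixed tissue, fewer cells of a type and less RNA per cell cannot be told apart.

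BAR and control shoots at 4 week differed in 7784 genes, or 33.2% of those tested, about equally in both directions. Of 23418 genes tested, 3873 (16.5%) were higher on BAR and 3911 (16.7%) were lower, by edgeR's quasi-likelihood test at an adjusted p under 0.05. Of those called, 3187 were higher and 2767 were lower by more than 2-fold, and 831 and 490 by more than 8-fold. The median log2 fold change over all genes tested was 0.03. The split between directions rested on the scaling factors, because with library totals alone the median of all genes was 0.40 and the calls were 6569 higher and 2238 lower. The number of calls also moved with single libraries. It was 13102 without control replicate 1, and 7767 of the 7784 called genes were also called then. It was 4698 without control replicate 3, 3491 without BAR replicate 1 and 3696 without BAR replicate 3. Over the 23418 genes of the main fit alone, 6804 were higher and 5852 lower without control replicate 1. Without BAR replicate 1 these numbers were 1802 and 1658. Counts within gene lists moved likewise and are to be read beside these numbers. Leaving out 1 library moved the number higher by over 1.5 times in 43 of 48 lists and the number lower in 39. The number higher was at its highest without control replicate 1 in 46 lists, and the number lower in 38. For 12207 of the genes tested (52.1%) the 3 BAR libraries did not overlap with the 3 control libraries.

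Some cytokinin signalling genes rose on BAR and others fell. Of 7 type-A response regulators that passed the count filter, 3 were higher on BAR and 0 were lower, with a median log2 fold change of 0.24 (1.12 without control replicate 1). ARR6 (DVH24_008781) stood at 6.75, 10 and 9.21 CPM on BAR, against 0.374, 0.179 and 1.09 CPM in the control (log2 fold change 3.78 ± 0.58 SE, adjusted p = 0.0049). ARR9 (DVH24_019719) stood at 4.39, 4.94 and 5.15 CPM on BAR, against 0.908, 0.595 and 0 CPM in the control (2.97 ± 0.77, adjusted p = 0.025). An ARR3 gene (DVH24_040788) stood at 6.05, 5.88 and 5.36 CPM on BAR, against 2.19, 0.714 and 0.933 CPM in the control (2.07 ± 0.46, adjusted p = 0.015). For these 3 genes every BAR library was above every control library. A second ARR3 gene (DVH24_007079) had overlapping groups, with 6.21, 5.83 and 5.61 CPM on BAR and 7.10, 5.6 and 2.72 CPM in the control (0.19 ± 0.38, adjusted p = 0.73). ORR9 (DVH24_015948) and ORR10 (DVH24_004874) also had overlapping groups, with log2 fold changes of 0.17 ± 0.43 and 0.24 ± 0.73. ORR4 (DVH24_006913) held 17 counts over the BAR libraries and 58 over the control libraries, and did not pass the test (-1.76 ± 0.82, adjusted p = 0.14). Without BAR replicate 1 or BAR replicate 3 only 1 of the type-A genes was called, and 4 were called without control replicate 1. The ARR9 call ended without control replicate 2 or any 1 BAR library (2.93 to 3.06), and that of the ARR3 gene DVH24_040788 without control replicate 3 or BAR replicate 1 or 3 (1.91 to 2.14).

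Upstream of the type-A genes, receptors, phosphotransfer proteins and type-B regulators included 4 genes that rose and 2 that fell among 19 tested (median 0.62). These shares, 21.1% and 10.5%, lay near the 16.5% and 16.7% over all genes for a list of this size. The receptor gene HISTIDINE KINASE 2 (DVH24_032453) stood at 28, 28 and 34.9 CPM on BAR, against 5.24, 2.92 and 5.91 CPM in the control (2.67 ± 0.30, adjusted p = 0.0024). HISTIDINE KINASE 4 (DVH24_007629), a receptor picked out after its values were seen, had 4.28, 5.05 and 5.10 CPM on BAR and 0, 0.655 and 0.466 CPM in the control (3.36 ± 0.80, adjusted p = 0.019). HISTIDINE KINASE 3 (DVH24_025102), the third receptor, was not called, with 232, 253 and 241 CPM on BAR and 288, 300 and 303 CPM in the control (-0.30 ± 0.18, adjusted p = 0.24). Of these receptor genes, HISTIDINE KINASE 2 and HISTIDINE KINASE 4 passed the test. The call of HISTIDINE KINASE 4 ended without control replicate 3 or any 1 BAR library (3.28 to 3.52). The type-B regulator ARR1 (DVH24_025434) stood at 239, 198 and 157 CPM on BAR, against 52.2, 43.4 and 51.7 CPM in the control (2.01 ± 0.22, adjusted p = 0.0023). A histidine-containing phosphotransfer protein gene (DVH24_027164) was lower, at 2.41, 3.49 and 1.70 CPM on BAR, against 18.7, 43.2 and 36.7 CPM in the control (-3.64 ± 0.41, adjusted p = 0.0026). Across the list, 3 genes were higher without control replicate 3 or any 1 BAR library, and 8 without control replicate 1.

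**Figure D1:**
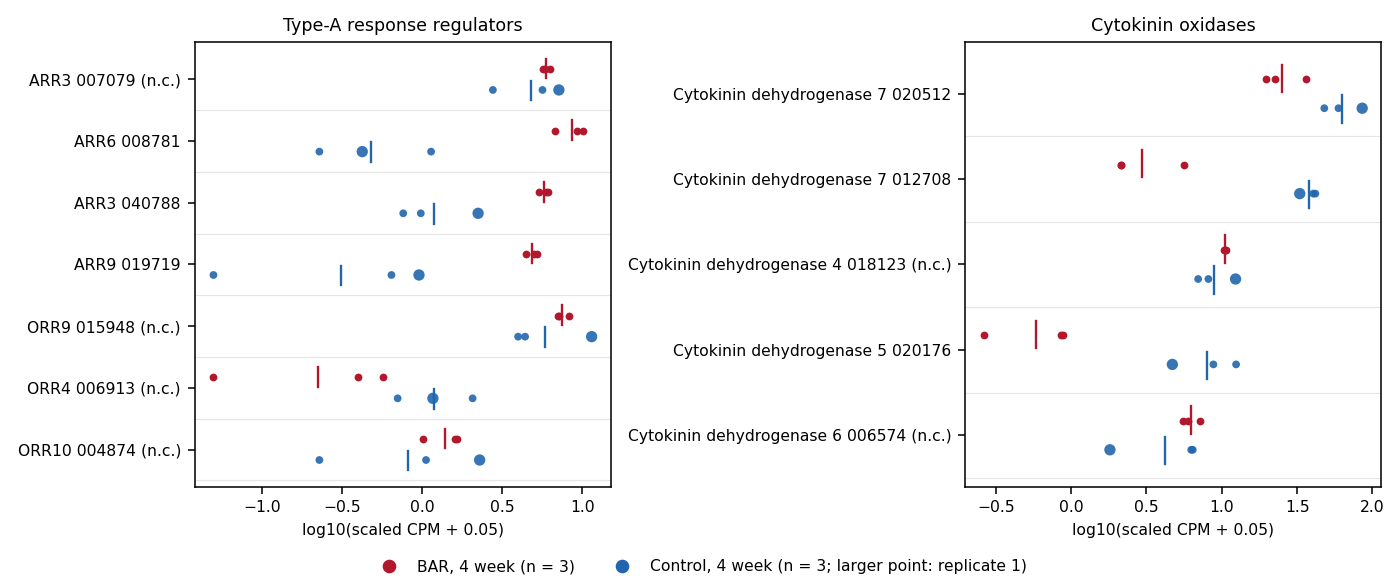
Log10 of scaled CPM plus 0.05 (horizontal axis) of the type-A response regulators (left) and cytokinin dehydrogenases (right) in the 3 BAR and 3 control libraries at 4 week. Each point is a library, the larger blue point is control replicate 1, each tick is the mean of the log10 values of a group, and n.c. marks genes that were not called. ARR6, ARR9 and 1 of the ARR3 genes have all BAR points above all control points, and 3 of the 5 cytokinin dehydrogenases have all BAR points below.

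Among called genes, those of cytokinin breakdown fell and most of those of cytokinin synthesis, activation and conjugation rose. Of 5 cytokinin dehydrogenase genes tested, 0 were higher on BAR and 3 were lower (median -1.30). A CKX7 gene (DVH24_012708) stood at 2.09, 5.57 and 2.10 CPM on BAR, against 32.9, 40.4 and 41.8 CPM in the control (-3.51 ± 0.42, adjusted p = 0.0027). The other CKX7 gene (DVH24_020512) stood at 22.4, 36.3 and 19.6 CPM on BAR, against 85.5, 59.5 and 47.9 CPM in the control (-1.30 ± 0.31, adjusted p = 0.02). A CKX5 gene (DVH24_020176) stood at 0.214, 0.833 and 0.801 CPM on BAR, against 4.65, 8.75 and 12.4 CPM in the control (-3.57 ± 0.58, adjusted p = 0.0056). In all 3 genes every BAR library was below every control library, while CKX4 (DVH24_018123, 0.20 ± 0.27) and CKX6 (DVH24_006574, 0.37 ± 0.48) had overlapping groups and were not called. The smaller fall of the CKX7 gene DVH24_020512 was not called without BAR replicate 1 or 3 (-1.18 and -1.12). CKX3 (DVH24_029452), a dehydrogenase gene picked out after its values were seen, held 4 counts over the BAR libraries and 0 over the control libraries and was not tested. Of 14 genes of cytokinin synthesis, activation and conjugation, 6 rose, 1 fell and 7 were not called (median 0.26), with 4 higher without BAR replicate 1 and 7 without control replicate 1. The LOG gene DVH24_005890 stood at 21.2, 18.1 and 18 CPM on BAR, against 0, 1.19 and 1.09 CPM in the control (4.49 ± 0.83, adjusted p = 0.0084). A LOG gene (DVH24_012986) stood at 19.5, 13.3 and 20.1 CPM on BAR, against 1.87, 4.35 and 4.04 CPM in the control (2.34 ± 0.37, adjusted p = 0.0054). IPT3 (DVH24_002809), which makes cytokinin nucleotides and was picked out after its values were seen, had 8.41, 4.11 and 9.01 CPM on BAR and 1.01, 0 and 0 CPM in the control (3.95 ± 1.07, adjusted p = 0.029). The IPT3 call ended without control replicate 2 or 3 or any 1 BAR library (3.48 to 4.21). For each of these activation and synthesis genes the groups did not overlap. LOG8 (DVH24_037925), the member of this list with the most counts, had overlapping groups and was not called (-0.32 ± 0.26, adjusted p = 0.38). It stood at 32.3, 28.4 and 35.9 CPM on BAR, against 55.9, 33.9 and 30.3 CPM in the control. Of 11 purine permeases and nucleoside transporters, proteins that can carry cytokinin bases and ribosides, 1 rose and 2 fell. The riser was the nucleoside transporter ENT3 (DVH24_011612), with 9.91, 7.96 and 8.06 CPM on BAR and 0.321, 0.179 and 0.699 CPM in the control (4.13 ± 0.47, adjusted p = 0.0025). ENT1 (DVH24_007032) was among those that fell, with 13.9, 18.4 and 15 CPM on BAR and 68.1, 70.5 and 85.1 CPM in the control (-2.24 ± 0.19, adjusted p = 0.0016).

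The 12 named genes with the largest upward differences held 0 to 60 counts over the 3 control libraries. Among the called genes, 178 had 0 counts over the 3 control libraries, and 9 called lower had 0 counts over the 3 BAR libraries. A gene at 0 in 1 group passed the count filter only through the other group, so it could be called in that direction only. The number of such genes among all genes tested was not counted, so 178 and 9 have no share beside them. The GDSL lipase gene LTL1 (DVH24_036863) stood at 25.7, 23.1 and 44.2 CPM on BAR and at 0 in each control library. Against a floor of 3 counts over the control group it was at least 503-fold higher on BAR (adjusted p = 0.0017). EPIDERMAL PATTERNING FACTOR-like 9 (DVH24_028509), a peptide of a family that sets the number of stomata, had 18.8, 10.6 and 20.0 CPM on BAR and 0 in each control library, at least 266-fold higher. Cyclin-U4-1 (DVH24_025870) was at least 190-fold higher and a polyamine transporter gene (DVH24_038028) at least 186-fold higher by the same floor. RICE SALT SENSITIVE 3 (DVH24_020673), a nuclear regulator of root cell elongation in rice, stood at 148, 31.4 and 124 CPM on BAR, against 1.12, 0 and 0.0777 CPM in the control (7.54 ± 1.08, adjusted p = 0.0041). ACCELERATED CELL DEATH 6 (DVH24_010757), a membrane protein of defence signalling in Arabidopsis, stood at 249, 80.7 and 336 CPM on BAR, against 2.19, 0.714 and 0.544 CPM in the control (7.42 ± 0.79, adjusted p = 0.0022). In both genes BAR replicate 2 was the lowest of the BAR libraries. That it lay above every control library follows from the choice of the 12 genes, which required no overlap between groups. A gene for a 36.4 kDa proline-rich protein (DVH24_027926) had 31.1, 25.9 and 22.3 CPM on BAR and 0.107, 0 and 0.389 CPM in the control (6.65 ± 0.60, adjusted p = 0.0017).

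The 12 named genes with the largest downward differences included thaumatin-like, endochitinase and glucanase genes of plant defence. A glucosyltransferase, a laccase, a cupredoxin, an inositol phosphatase and an expansin gene were also among them. A thaumatin-like protein 1a gene (DVH24_035284) stood at 0.964, 7.18 and 4.95 CPM on BAR, against 3460, 14400 and 15000 CPM in the control (-11.25 ± 1.21, adjusted p = 0.0023). Its paralog (DVH24_035288) stood at 1.07, 3.80 and 4.30 CPM on BAR, against 2770, 10500 and 12200 CPM in the control (-11.39 ± 1.05, adjusted p = 0.0017). Reads of such close copies may be shared between them, so the values of each are uncertain. A glucosyltransferase gene (DVH24_025655) had 0 counts in all BAR libraries and 0.908, 315 and 331 CPM in the control, at least 3810-fold lower on BAR, with control replicate 1 far below the other controls. The call of this gene ended without any 1 library other than control replicate 1. A Kunitz type trypsin inhibitor gene (DVH24_002949) stood at 0, 2.60 and 0.701 CPM on BAR, against 152, 701 and 755 CPM in the control (-8.79 ± 1.32, adjusted p = 0.0047). For the genes whose levels are given in this paragraph control replicate 1 was the lowest of the control libraries. In the endochitinase genes DVH24_022470 and DVH24_022468 control replicate 2 was the lowest (741 and 1280 CPM, against 837 and 1380 CPM in control replicate 1). That control replicate 1 lay above all BAR libraries follows from the choice of the 12 genes, which required no overlap between groups.

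**Figure D2:**
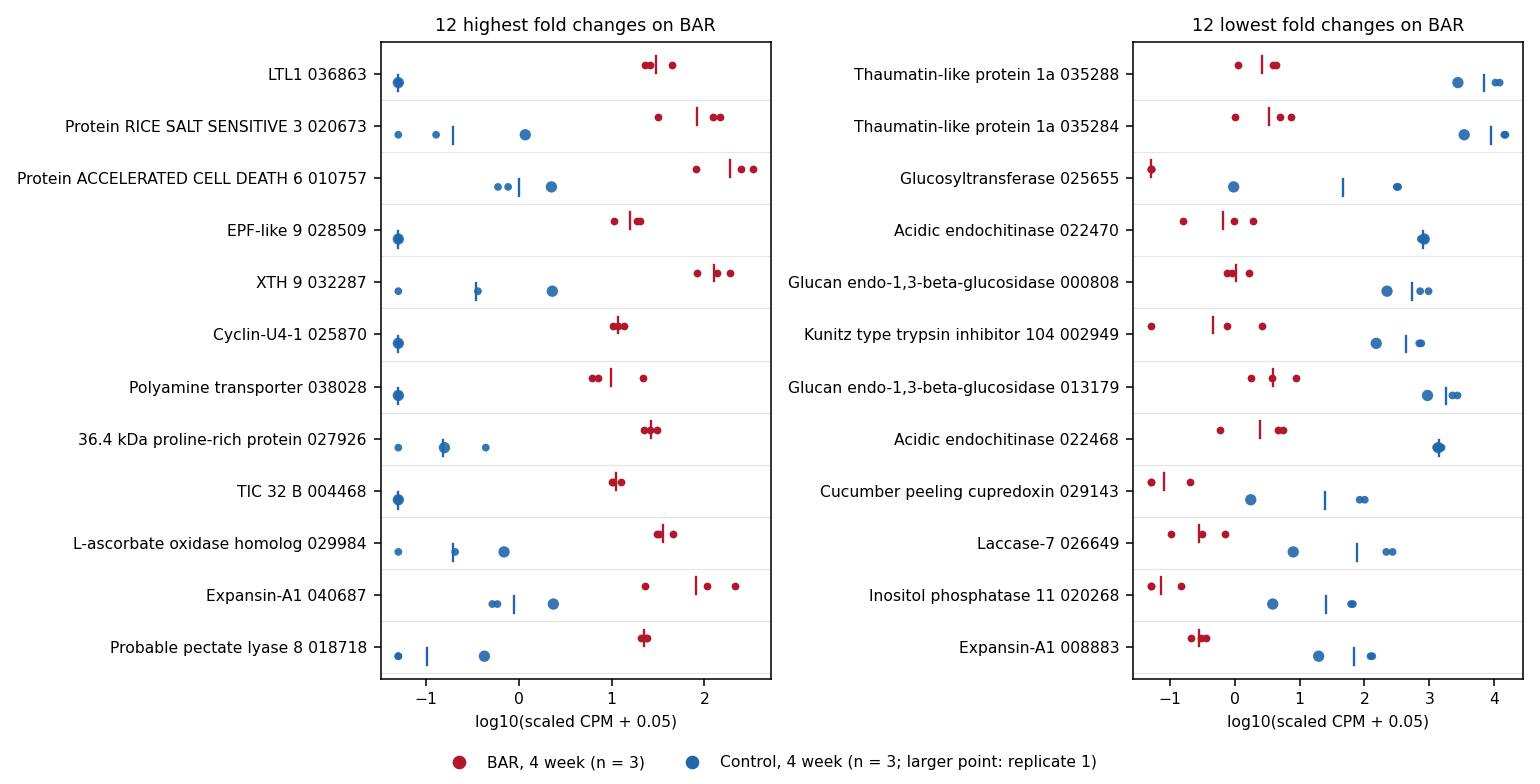
Log10 of scaled CPM plus 0.05 (horizontal axis) in each of the 3 BAR and 3 control libraries of the 12 genes with the highest (left) and the 12 with the lowest (right) log2 fold changes among called genes with a characterised protein name, a mean of at least 5 CPM in the higher group and no overlap between groups. Each point is a library, each tick the mean of the log10 values of a group, and fitted fold changes of genes at 0 in 1 group depend on the prior count. The thaumatin-like genes stand between 2770 and 15000 CPM in the control libraries and below 8 CPM in the BAR libraries.

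Among the defence proteins as a whole, 33 of 110 genes tested fell and 23 rose, while the level summed over the list was lower. The summed level of the list was 5986, 7632 and 5311 CPM in the BAR libraries, against 27090, 40620 and 44810 CPM in the control libraries. Its median log2 fold change was -0.02, near that of all genes (0.03), and 0.35 with library totals alone, where 28 fell and 31 rose. Among those that fell were 3 acidic endochitinase genes, which encode enzymes that cut fungal cell walls. The one with the smallest p (DVH24_022466) stood at 36.1, 58.1 and 37.2 CPM on BAR, against 2160, 2460 and 2890 CPM in the control (-5.83 ± 0.38, adjusted p = 0.0014). A glucan endo-1,3-beta-glucosidase gene (DVH24_013179) stood at 1.71, 3.70 and 8.86 CPM on BAR, against 940, 2280 and 2730 CPM in the control (-8.67 ± 0.87, adjusted p = 0.002). PATHOGENESIS-RELATED PROTEIN 1 (DVH24_007733), a classical marker of the salicylic acid response that was picked out after its values were seen, had 0.268, 0.937 and 0.500 CPM on BAR and 24.6, 27.4 and 17.3 CPM in the control (-5.09 ± 0.44, adjusted p = 0.0016). In these genes every BAR library lay below every control library, control replicate 1 included. Among the members that rose was a chitinase-like protein 2 gene (DVH24_025421), named for the fold of a chitinase, with 13.1, 12.4 and 11.6 CPM on BAR and 0.588, 0.893 and 0.389 CPM in the control (4.07 ± 0.35, adjusted p = 0.0016). The number lower was 26 without BAR replicate 1 or 3 and 37 without control replicate 1, and the number higher was 11 without BAR replicate 3 and 41 without control replicate 1. Of 77 WRKY transcription factors, many of which act in defence, 10 rose and 14 fell, shares close to those of all genes, and with library totals alone 14 were higher and 11 lower. The number higher was 3 and the number lower 9 without BAR replicate 1, and without control replicate 1 they were 18 and 24. A WRKY75 gene (DVH24_031593) had 0.107, 0.520 and 0.350 CPM on BAR and 25.3, 18.7 and 17.6 CPM in the control (-5.55 ± 0.46, adjusted p = 0.0016).

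**Figure D3:**
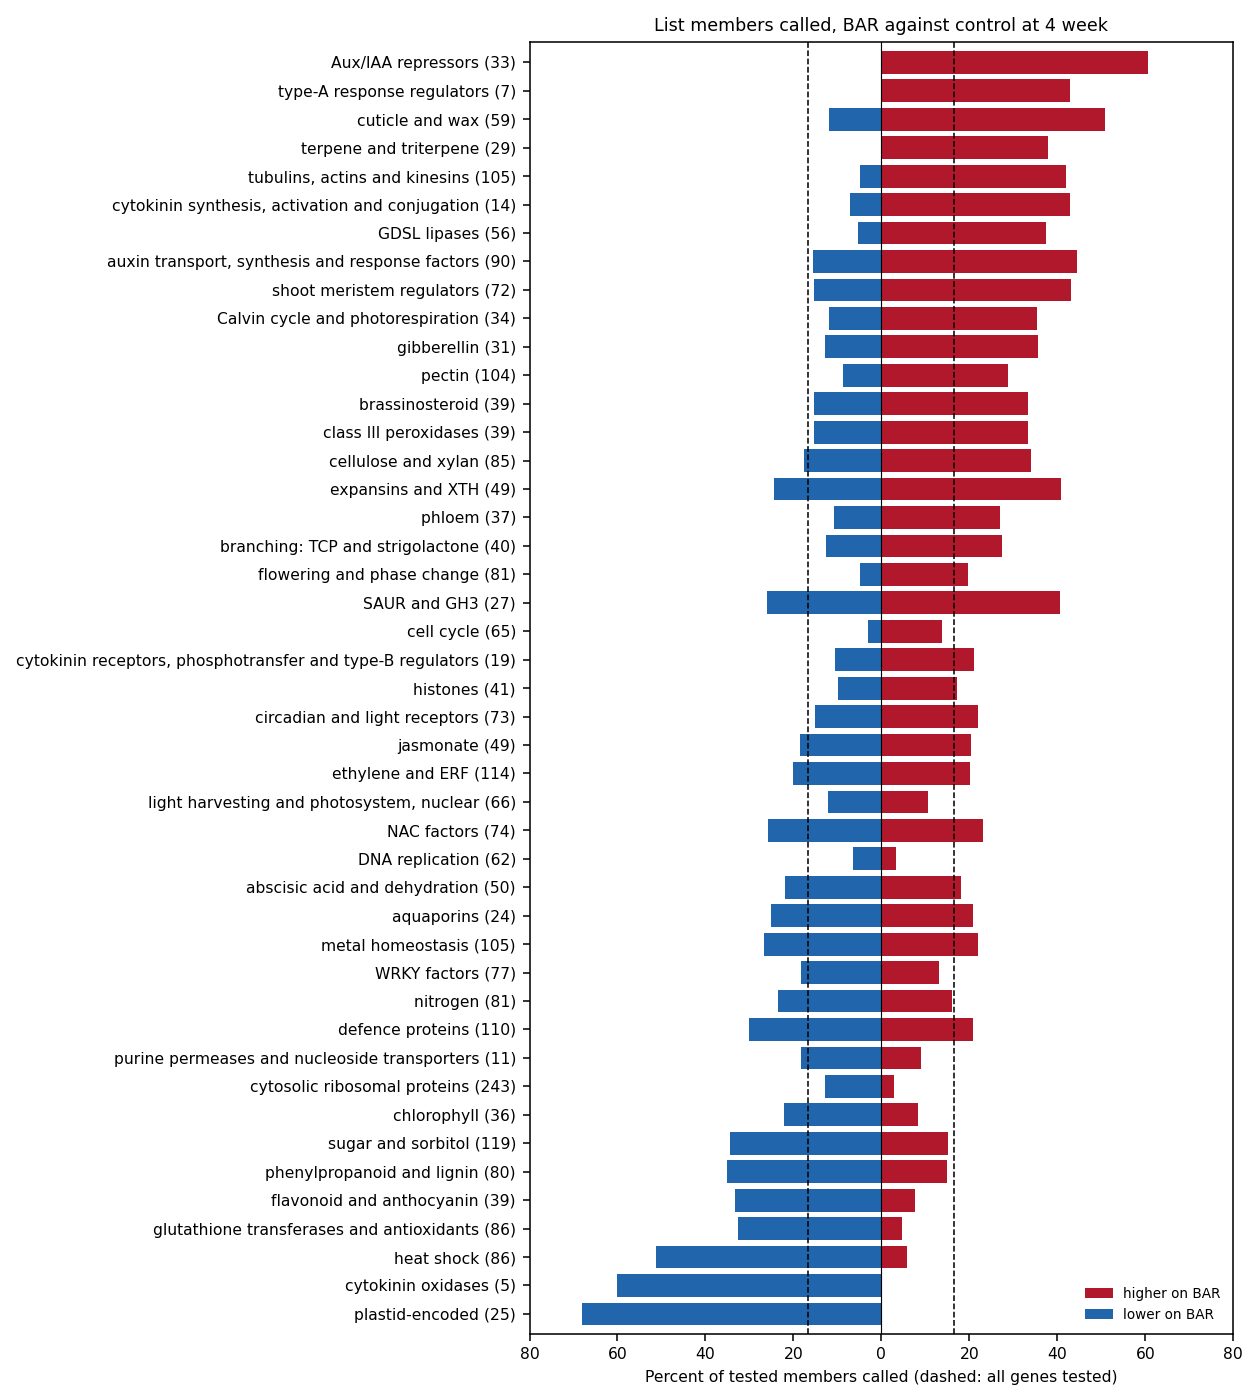
Percent of tested members called higher (red, to the right) and lower (blue, to the left) on BAR at 4 week for the gene lists with at least 5 tested members, whose number stands in parentheses, with dashed lines at the shares over all genes tested. All genes give 16.5% higher and 16.7% lower, and the Aux/IAA repressors give 60.6% higher and 0 lower, while the heat shock proteins give 5.81% higher and 51.2% lower.

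Many auxin genes rose on BAR. The Aux/IAA repressors are short-lived nuclear proteins that block auxin response factors until auxin triggers their degradation, and auxin in turn induces many of their genes. Of 33 tested, 20 were higher on BAR and 0 lower, with a median log2 fold change of 2.00. Their summed level was 1426, 1535 and 1277 CPM in the BAR libraries, against 764.6, 372.4 and 339.4 CPM in the control libraries. Control replicate 1 held the highest control value, and no control library reached the BAR libraries. The count was 8 without BAR replicate 1 and 26 without control replicate 1. An AUX28 gene (DVH24_021779) stood at 178, 102 and 177 CPM on BAR, against 2.14, 1.79 and 0.855 CPM in the control (6.46 ± 0.42, adjusted p = 0.0014). IAA27 (DVH24_031468) stood at 42.4, 24.6 and 28 CPM on BAR, against 4.75, 2.44 and 2.41 CPM in the control (3.25 ± 0.37, adjusted p = 0.0025). IAA16 (DVH24_015344), the member with the most counts, stood at 194, 231 and 190 CPM on BAR, against 78.1, 68.6 and 64.4 CPM in the control (1.54 ± 0.19, adjusted p = 0.0028).

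Of 90 genes for auxin transport, synthesis and response factors, 40 rose and 14 fell (median 0.95), with 19 higher without BAR replicate 1 and 54 without control replicate 1. Their summed level did not rise, with 3719, 3224 and 3860 CPM on BAR and 3510, 4173 and 4151 CPM in the control. AUXIN RESPONSE FACTOR 19 (DVH24_029555), an activator of auxin-induced genes, stood at 48.8, 31.1 and 39.6 CPM on BAR, against 2.30, 0.833 and 2.10 CPM in the control (4.43 ± 0.40, adjusted p = 0.0017). A gene for an indole-3-pyruvate monooxygenase of the YUCCA family (DVH24_002736), which catalyses the last step of auxin synthesis, had 26.8, 24.6 and 34.1 CPM on BAR and 3.47, 3.04 and 2.95 CPM in the control (3.13 ± 0.22, adjusted p = 0.0015). Both genes had no overlap between groups. The auxin transport protein BIG (DVH24_028440) was lower, at 79.3, 65.1 and 117 CPM on BAR, against 220, 653 and 609 CPM in the control (-2.50 ± 0.46, adjusted p = 0.0083). Of 27 SAUR and GH3 genes, 11 rose and 7 fell, with 6 higher without BAR replicate 1 and 3 lower without BAR replicate 1 or 3. SAUR genes, which promote cell elongation, were found on both sides. SAUR78 (DVH24_000504) had 297, 165 and 268 CPM on BAR and 38.5, 8.81 and 4.66 CPM in the control (3.80 ± 0.79, adjusted p = 0.012). SAUR32 (DVH24_022361) had 23.8, 20.8 and 17.4 CPM on BAR and 82.7, 54.4 and 70.3 CPM in the control (-1.74 ± 0.22, adjusted p = 0.0032).

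Among regulators of the shoot tip and of young leaves more genes rose than fell. Of 72 shoot meristem and organ regulators tested, 31 were higher and 11 lower (median 1.07). Their summed level overlapped between groups, at 2527, 2398 and 2679 CPM on BAR and 2344, 2452 and 2550 CPM in the control. The number higher was 18 without BAR replicate 1 and 40 without control replicate 1, and the number lower was 4 without BAR replicate 1 or 3. Growth-regulating factors and their partner GIF1 drive cell proliferation in leaf primordia. GROWTH-REGULATING FACTOR 7 (DVH24_024974) stood at 48.7, 24.8 and 34.1 CPM on BAR, against 0.748, 0 and 0.0777 CPM in the control (6.46 ± 0.80, adjusted p = 0.0029). GRF1-INTERACTING FACTOR 1 (DVH24_036799) stood at 42.6, 30.9 and 23.6 CPM on BAR, against 3.21, 2.68 and 1.87 CPM in the control (3.58 ± 0.32, adjusted p = 0.0017). YABBY 5 (DVH24_029150), a regulator of the lower leaf face, stood at 30.9, 30.5 and 35.8 CPM on BAR, against 6.52, 2.92 and 3.34 CPM in the control (2.89 ± 0.33, adjusted p = 0.0026). In each of these genes the groups were well apart. The class II homeobox gene KNOTTED-1-LIKE 3 (DVH24_012057) had 562, 485 and 557 CPM on BAR and 276, 151 and 171 CPM in the control (1.42 ± 0.29, adjusted p = 0.011). CLAVATA1 (DVH24_013013), a receptor kinase that limits meristem size and was picked out after its values were seen, had 51, 33.9 and 50.9 CPM on BAR and 15.2, 3.10 and 5.44 CPM in the control (2.49 ± 0.56, adjusted p = 0.015). CUP-SHAPED COTYLEDON 2 (DVH24_007248), a boundary gene also picked out after its values were seen, had 7.34, 7.49 and 6.11 CPM on BAR and 3.53, 1.43 and 3.03 CPM in the control (1.35 ± 0.38, adjusted p = 0.033). The CUP-SHAPED COTYLEDON 2 call ended without any 1 library other than control replicate 1 (1.06 to 1.45), and that of CLAVATA1 without control replicate 3 (2.29). Of the knotted-like homeobox and CUP-SHAPED COTYLEDON genes taken as shoot markers, 8 were tested, with 3 higher and 2 lower.

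Genes tied to bud outgrowth were mixed. Of 40 TCP transcription factors and strigolactone genes, 11 rose and 5 fell (median 0.71), with 3 higher without BAR replicate 1 or 3 or control replicate 2 and 23 without control replicate 1. SMAX1-LIKE 3 (DVH24_034842), of the protein family that strigolactone and karrikin signals target for degradation, stood at 7.71, 8.33 and 9.51 CPM on BAR, against 1.23, 1.19 and 0.933 CPM in the control (2.80 ± 0.29, adjusted p = 0.0022). A TCP19 gene (DVH24_024666) was lower, at 19.2, 21.5 and 19.3 CPM on BAR, against 42.8, 55.5 and 57.6 CPM in the control (-1.37 ± 0.18, adjusted p = 0.0036). The strigolactone receptor RMS3 (DVH24_012546), which in pea holds back branching and was picked out after its values were seen, had 10.3, 16.1 and 9.16 CPM on BAR and 65.5, 26.0 and 31.9 CPM in the control (-1.78 ± 0.40, adjusted p = 0.016). The RMS3 call ended without BAR replicate 1 or 3 (-1.68 and -1.61). Among flowering and phase change genes 16 of 81 rose and 4 fell (median 0.45), with 34 higher and 12 lower without control replicate 1, and 0 lower without BAR replicate 1 or 3 or control replicate 2 or 3. The Squamosa promoter-binding-like gene DVH24_005100, of a family that marks the change from juvenile to adult shoots, had 49.7, 50.2 and 44.0 CPM on BAR and 6.78, 8.27 and 9.64 CPM in the control (2.53 ± 0.20, adjusted p = 0.0016).

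Genes that loosen and build primary cell walls rose more often than they fell. Expansins and xyloglucan endotransglucosylases (XTH) loosen the wall of growing cells, and of 49 tested 20 rose and 12 fell (median 0.96). The number higher was 15 without BAR replicate 3 and 30 without control replicate 1, and the number lower was 5 without BAR replicate 3. Expansin-A8 (DVH24_022849) stood at 114, 114 and 133 CPM on BAR, against 13.6, 11 and 8.55 CPM in the control (3.43 ± 0.23, adjusted p = 0.0014). An XTH9 gene (DVH24_032287) stood at 188, 82.3 and 135 CPM on BAR, against 2.24, 0 and 0.311 CPM in the control (7.07 ± 1.03, adjusted p = 0.0043). Members of the same family differed in direction. One expansin-A1 gene (DVH24_040687) had 107, 22.9 and 214 CPM on BAR and 2.30, 0.536 and 0.466 CPM in the control (6.52 ± 1.01, adjusted p = 0.0051). A second expansin-A1 gene (DVH24_008883) had 0.161, 0.312 and 0.250 CPM on BAR and 19.6, 124 and 132 CPM in the control (-8.02 ± 0.87, adjusted p = 0.0023). Of 104 pectin genes 30 rose and 9 fell (median 0.98), with 15 higher without BAR replicate 1 or 3 and 60 without control replicate 1. A pectate lyase 8 gene (DVH24_018718), whose enzyme cuts wall pectin, had 20.5, 23.2 and 24 CPM on BAR and 0.374, 0 and 0 CPM in the control (6.5 ± 0.72, adjusted p = 0.0024).

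Of 85 cellulose and xylan genes 29 rose and 15 fell (median 0.71), with 15 higher without BAR replicate 1 or 3 and 48 without control replicate 1. Their summed level did not rise, with 4524, 3893 and 4494 CPM on BAR and 4384, 5164 and 5147 CPM in the control. Endoglucanase 6 (DVH24_008231) had 32.3, 31.6 and 57.4 CPM on BAR and 2.67, 1.49 and 2.49 CPM in the control (4.12 ± 0.36, adjusted p = 0.0016). Cellulose synthase subunit 7 (DVH24_017596), which works in secondary walls of wood cells, went the other way, with 136, 100 and 121 CPM on BAR and 214, 1560 and 1440 CPM in the control (-3.17 ± 0.70, adjusted p = 0.015). Control replicate 1 was closer to the BAR libraries than to the other controls there. The call ended without any 1 BAR library (-3.28 to -3.10). The other secondary wall cellulose synthases, which serve as markers of wood cells, did not move with this gene, since 4 of 7 tested were higher and 0 lower. Without it they summed to 150 to 161 CPM on BAR and to 99.1 to 106 CPM in the control. Laccases, also taken as markers of wood cells, summed to a lower level on BAR, like this gene. Their sum was 115 to 165 CPM on BAR and 382 to 652 CPM in the control, with 4 of 14 tested higher and 4 lower. The lower sum lay largely in a few genes. A laccase gene held 25.5, 24.6 and 24.9 CPM on BAR and 159, 175 and 232 CPM in the control. Another held 0.0535, 0.260 and 0.651 CPM on BAR and 7.91, 217 and 272 CPM in the control. The sum thus does not speak for laccases as a class.

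More genes of surface lipids rose than fell. Of 59 cuticle and wax genes 30 were higher and 7 lower (median 1.06), with 20 higher without BAR replicate 3 and 36 without control replicate 1. The elongase 3-ketoacyl-CoA synthase 10 (DVH24_020340), which makes the long acyl chains of wax and cutin, stood at 311, 460 and 315 CPM on BAR, against 94.8, 23.2 and 19 CPM in the control (2.98 ± 0.65, adjusted p = 0.014). CYP77A3 (DVH24_013674), a cytochrome P450 of a cutin-making family, stood at 41.7, 24.7 and 53.5 CPM on BAR, against 0.908, 0.238 and 0 CPM in the control (6.25 ± 0.75, adjusted p = 0.0027). A glycerol-3-phosphate acyltransferase of the RAM2 type (DVH24_007106) was lower, at 0.321, 0.312 and 0.500 CPM on BAR, against 9.13, 60.7 and 57.5 CPM in the control (-6.43 ± 0.80, adjusted p = 0.0029). Of 56 GDSL lipases, a family that includes cutin-forming enzymes, 21 rose and 3 fell (median 1.07), with 15 higher without BAR replicate 1 and 33 without control replicate 1. The epidermal marker PROTODERMAL FACTOR summed over 4 genes to 113 to 133 CPM on BAR and to 45.7 to 95.7 CPM in the control, with 3 of the genes called higher. The part of epidermal cells in the surface lipid genes was not tested.

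Many more cytoskeleton genes rose than fell, and 11 of 65 cell cycle genes were called. Of 105 tubulins, actins and kinesins 44 were higher and 5 lower (median 0.81), with 23 higher without BAR replicate 3 and 57 without control replicate 1. The kinesin gene KIN-14T (DVH24_037980) stood at 26.4, 21.1 and 28.5 CPM on BAR, against 1.82, 2.50 and 3.26 CPM in the control (3.28 ± 0.29, adjusted p = 0.0016). An actin gene (DVH24_005123) had 226, 96.7 and 187 CPM on BAR and 13.3, 6.49 and 7.30 CPM in the control (4.22 ± 0.44, adjusted p = 0.0022). An actin-7 gene (DVH24_008396) was lower, with 37.7, 35.1 and 27.3 CPM on BAR and 250, 323 and 366 CPM in the control (-3.22 ± 0.25, adjusted p = 0.0015). Of 65 cell cycle genes 9 rose (13.8%) and 2 fell (3.08%), and the number higher was 2 without BAR replicate 1 and 18 without control replicate 1. Cyclin-D1-1 (DVH24_034392), a cyclin of the entry into the cell cycle, had 1.87, 1.93 and 2.15 CPM on BAR and 0.107, 0 and 0.155 CPM in the control (3.41 ± 0.59, adjusted p = 0.0069). The mitotic cyclin gene Cyclin-B1-2 (DVH24_028377) was lower, with 50.7, 57.2 and 46.7 CPM on BAR and 101, 92.1 and 77.1 CPM in the control (-0.81 ± 0.18, adjusted p = 0.015). Among 3 Cyclin-D3-3 genes, which are cytokinin targets in Arabidopsis and were picked out after their values were seen, 1 rose (DVH24_020669, 1.87 ± 0.42, adjusted p = 0.016) and 1 fell (DVH24_030105, -0.85 ± 0.25, adjusted p = 0.038). These cyclin calls depended on single libraries, since that of Cyclin-B1-2 ended without BAR replicate 1 or 3 (-0.78 and -0.73) and that of DVH24_020669 without control replicate 3 or BAR replicate 1 (1.70 to 1.76). The call of DVH24_030105 ended without control replicate 2 or 3 or BAR replicate 1 or 3 (-0.96 to -0.71). Of 62 DNA replication genes 2 rose and 4 fell, and of 41 histones 7 rose and 4 fell, with medians of 0.06 in both lists, and without control replicate 1 the numbers were 14 and 12 for replication and 13 and 6 for histones. With library totals alone these lists each gave 12 higher and 2 lower, and the cell cycle list gave 20 higher (30.8%, against 28.1% of all genes) and 0 lower.

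The phenylpropanoid pathway, which makes lignin and other phenolics from phenylalanine, summed to a lower level on BAR. Of 80 phenylpropanoid and lignin genes 28 fell and 12 rose (median -0.67), and with library totals alone 23 fell and 18 rose (median -0.31). The number lower was 18 without BAR replicate 3, and the number higher was 6 without BAR replicate 1 or 3. Without control replicate 1 the list gave 30 lower, 20 higher and a median of -0.18. The list summed to 1520, 2197 and 1580 CPM in the BAR libraries, against 7008, 6338 and 6820 CPM in the control libraries, with no overlap. Of the first enzymes of the pathway, 1 gene each is given here. PHENYLALANINE AMMONIA-LYASE 1 (DVH24_004645), the entry enzyme, stood at 101, 225 and 137 CPM on BAR, against 1060, 1020 and 1050 CPM in the control (-2.76 ± 0.35, adjusted p = 0.0031). Cinnamate 4-monooxygenase (DVH24_038336), the second enzyme, stood at 71.6, 102 and 49.8 CPM on BAR, against 558, 545 and 541 CPM in the control (-2.87 ± 0.31, adjusted p = 0.0023). A 4-coumarate CoA ligase gene (DVH24_025057), the third step, stood at 33.7, 68.0 and 55.2 CPM on BAR, against 366, 590 and 668 CPM in the control (-3.37 ± 0.37, adjusted p = 0.0024). The last-named 2 genes were picked out after their values were seen. Hydroxycinnamoyl transferase (DVH24_031157), the branch toward lignin, likewise picked out afterwards, had 1.93, 37.5 and 7.16 CPM on BAR and 545, 1260 and 1340 CPM in the control (-6.07 ± 1.14, adjusted p = 0.0089). In these genes BAR replicate 2 was the highest of the BAR libraries and remained below all controls. A laccase-15 gene (DVH24_025048), of the enzymes that polymerise lignin, had 0.214, 0.260 and 0.751 CPM on BAR and 46.4, 39.5 and 57.7 CPM in the control (-6.51 ± 0.45, adjusted p = 0.0014). A cinnamyl alcohol dehydrogenase gene (DVH24_020088) ran against the list, with 17.1, 21.6 and 19.5 CPM on BAR and 0.214, 0.298 and 0.233 CPM in the control (5.75 ± 0.28, adjusted p = 0.0007).

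Of 39 flavonoid genes, whose pathway branches off this one, 13 fell, 3 rose and 23 were not called (median -1.31). Without control replicate 1 the list gave 14 lower, 9 higher and a median of -0.81. The number lower was 8 without BAR replicate 3 and 17 without BAR replicate 2. Flavonoid 3'-monooxygenase (DVH24_008935) stood at 60, 74.9 and 57.0 CPM on BAR, against 243, 198 and 221 CPM in the control (-1.78 ± 0.20, adjusted p = 0.0024). Chalcone isomerase (DVH24_024060), an early enzyme picked out after its values were seen, had 9.53, 23.2 and 10.4 CPM on BAR and 58.2, 258 and 237 CPM in the control (-3.67 ± 0.64, adjusted p = 0.0072). Of the enzymes of the tannin branch, anthocyanidin reductase (DVH24_008217) rose, with 76, 52.8 and 61.8 CPM on BAR and 16.8, 13.2 and 13.6 CPM in the control (2.12 ± 0.21, adjusted p = 0.002). Leucoanthocyanidin reductase (DVH24_009020), picked out after its values were seen, fell, with 1.55, 11.6 and 2.80 CPM on BAR and 119, 34.4 and 41.1 CPM in the control (-3.59 ± 0.84, adjusted p = 0.018). The call of that gene ended without BAR replicate 1 or 3 (-3.14 and -3.27). By contrast, among 29 genes for terpenes and triterpenes 11 rose and 0 fell, with 5 higher without BAR replicate 1 or control replicate 3 and 19 without control replicate 1. Cycloartenol synthase 2 (DVH24_018731), the entry to plant sterols, had 59.0, 48.8 and 80.3 CPM on BAR and 11.4, 4.70 and 4.59 CPM in the control (3.15 ± 0.42, adjusted p = 0.0035).

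**Figure D4:**
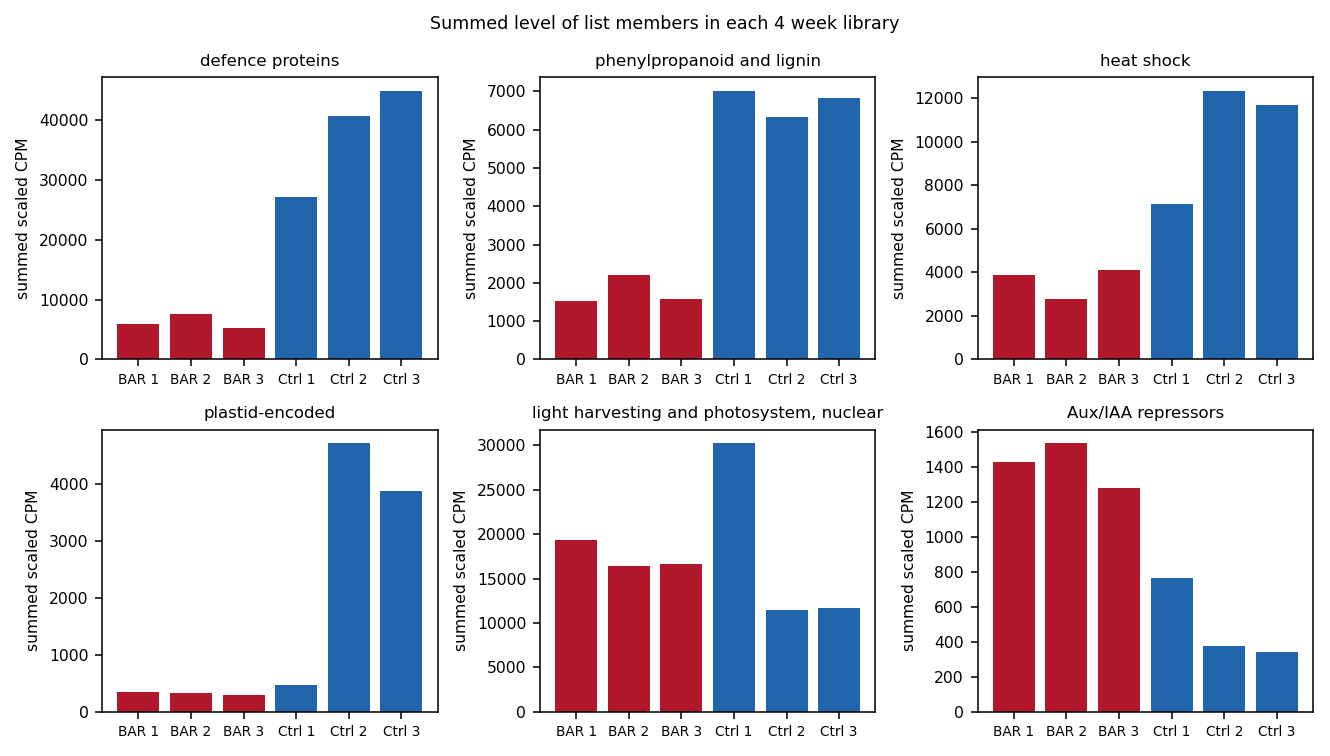
Summed scaled CPM (vertical axis) of the members of 6 gene lists in each of the 3 BAR and 3 control libraries at 4 week, with 1 bar a library. The defence, phenylpropanoid and heat shock lists have all control bars above all BAR bars, the Aux/IAA list has all BAR bars above all control bars, and in the plastid-encoded list control replicate 1 lies near the BAR libraries.

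Among heat shock and antioxidant genes many more fell than rose on BAR. Of 86 heat shock genes, which encode chaperones that keep proteins folded, 44 fell and 5 rose (median -1.37). The number lower was 30 without BAR replicate 1 and 52 without control replicate 1. The list summed to 3901, 2763 and 4094 CPM on BAR, against 7147, 12340 and 11670 CPM in the control. An 18.5 kDa heat shock protein gene (DVH24_023011) stood at 14, 12.4 and 9.41 CPM on BAR, against 141, 221 and 187 CPM in the control (-3.93 ± 0.27, adjusted p = 0.0014). Heat shock protein 83 (DVH24_022501), of the HSP90 family, stood at 5.25, 2.55 and 3.05 CPM on BAR, against 125, 384 and 365 CPM in the control (-6.29 ± 0.57, adjusted p = 0.0017). The plastid chaperone ClpB3 (DVH24_037017) stood at 54.5, 59.1 and 62.1 CPM on BAR, against 408, 511 and 457 CPM in the control (-2.97 ± 0.21, adjusted p = 0.0015). In these genes every BAR library was below every control library. Of 86 glutathione transferases and antioxidant enzymes 28 fell, 4 rose and 54 were not called (median -0.36, and 0.02 with library totals alone, which gave 20 lower and 8 higher). Their sum was 5214, 6140 and 4917 CPM on BAR, against 13450, 9953 and 10010 CPM in the control, and 16 were lower without BAR replicate 1 or 3 and 33 without control replicate 1. Glutathione S-transferase L3 (DVH24_004551) had 60.3, 67.4 and 67.9 CPM on BAR and 609, 607 and 564 CPM in the control (-3.18 ± 0.21, adjusted p = 0.0014). A cytosolic ascorbate peroxidase gene (DVH24_038772), which removes hydrogen peroxide, had 105, 65.5 and 65.8 CPM on BAR and 453, 706 and 661 CPM in the control (-2.95 ± 0.31, adjusted p = 0.0022).

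Several genes of sugar and nitrogen metabolism and transport fell, as described here by name. Of 119 sugar and sorbitol genes 41 fell and 18 rose, and the median of -0.39 was -0.01 with library totals alone, where 28 were lower and 32 higher. The number lower was 21 without BAR replicate 1 or 3, and the number higher was 30 without control replicate 1. The sum of the list was 8866, 8987 and 7831 CPM on BAR, against 14640, 25680 and 25480 CPM in the control. In apple, sorbitol is the main sugar carried from leaves. A sorbitol-6-phosphate dehydrogenase gene (DVH24_021353), which makes sorbitol and was picked out after its values were seen, had 33.1, 146 and 15.5 CPM on BAR and 822, 2040 and 2050 CPM in the control (-4.66 ± 0.93, adjusted p = 0.01). The copy with the most counts (DVH24_002547) did not pass, with 1320, 1430 and 1470 CPM on BAR and 2380, 2120 and 2080 CPM in the control (-0.64 ± 0.26, adjusted p = 0.1), although its groups did not overlap. Polyol transporter 5 (DVH24_021506) had 156, 105 and 131 CPM on BAR and 639, 1180 and 1180 CPM in the control (-2.94 ± 0.34, adjusted p = 0.0026). Among 81 nitrogen genes 19 fell and 13 rose, shares near those of all genes, and with library totals alone 16 were lower and 21 higher. Without control replicate 1, 27 nitrogen genes were higher. Asparagine synthetase (DVH24_038453), whose product stores nitrogen, stood at 126, 770 and 192 CPM on BAR, against 4880, 5270 and 5190 CPM in the control (-3.82 ± 0.74, adjusted p = 0.0097). Nitrate transporter 2.7 (DVH24_031752) had 1.77, 4.68 and 1.75 CPM on BAR and 92.1, 79.8 and 102 CPM in the control (-5.00 ± 0.44, adjusted p = 0.0016). Of 24 aquaporins 5 rose and 6 fell, with 1 higher without BAR replicate 1 or 3 and 11 without control replicate 1. PIP1-4 (DVH24_022984), a plasma membrane water channel, had 183, 373 and 210 CPM on BAR and 1250, 2000 and 2210 CPM in the control (-2.83 ± 0.41, adjusted p = 0.0042).

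Few nuclear photosynthesis genes were called, whereas most plastid-encoded genes tested were lower. Of 66 nuclear genes of light harvesting and the photosystems 7 rose and 8 fell, and 39 were higher without control replicate 1. With library totals alone 13 were higher and 5 lower. Their sum was 19330, 16460 and 16670 CPM on BAR, against 30280 CPM in control replicate 1 and 11450 and 11710 CPM in control replicates 2 and 3, so the groups overlapped. The Rubisco small subunit gene DVH24_031002, the carbon-fixing enzyme's nuclear part, was not called, with 8130, 4880 and 8270 CPM on BAR and 8510, 3960 and 4340 CPM in the control (0.34 ± 0.46, adjusted p = 0.6). One chlorophyll a-b binding protein gene (DVH24_017451) was lower, with 47.9, 49.9 and 47.6 CPM on BAR and 1750, 566 and 496 CPM in the control (-4.27 ± 0.56, adjusted p = 0.0034). Of 34 genes of the Calvin cycle and photorespiration 12 rose and 4 fell, with 2 higher without BAR replicate 1 or 3 and 20 without control replicate 1. A sedoheptulose-1,7-bisphosphatase gene (DVH24_021870), of the Calvin cycle, had 157, 140 and 137 CPM on BAR and 55.8, 37 and 38.5 CPM in the control (1.72 ± 0.22, adjusted p = 0.0031). Glycolate oxidase (DVH24_000486), of photorespiration, had 8.62, 17.9 and 10.8 CPM on BAR and 51.8, 44.3 and 38.3 CPM in the control (-1.84 ± 0.30, adjusted p = 0.0057).

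Of 25 plastid-encoded genes tested 17 fell and 0 rose (median -5.01), with 9 lower without BAR replicate 3 and 18 without control replicate 1. The sum was 337.5, 333.3 and 287.5 CPM on BAR, against 473.7 CPM in control replicate 1 and 4723 and 3883 CPM in control replicates 2 and 3. The gene of photosystem II protein D2 (DVH24_034793) had 14.2, 15 and 12.3 CPM on BAR and 39.1, 1930 and 1550 CPM in the control (-6.40 ± 1.30, adjusted p = 0.011). The size of this difference thus lay in 2 of the 3 control libraries. Its call ended without BAR replicate 1 or 3 (-6.43 and -6.33). Libraries were made from poly(A) RNA, and plastid transcripts largely lack stable poly(A) tails, so these counts do not measure plastid transcripts in full. Mitochondrion-encoded genes moved with them, as 2 of 3 tested fell and 0 rose (median -4.32). These summed to 1.499, 4.01 and 3.10 CPM on BAR, against 6.52, 48.7 and 55.4 CPM in the control, with control replicate 1 again nearest to BAR. The part of RNA selection or quality in these differences was not tested. Genes of chlorophyll metabolism divided between breakdown steps. Pheophorbide a oxygenase (DVH24_005817), the enzyme that opens the chlorophyll ring during leaf ageing, stood at 61.6, 82.5 and 75.1 CPM on BAR, against 408, 796 and 786 CPM in the control (-3.18 ± 0.34, adjusted p = 0.0022). Pheophytinase (DVH24_006583), which acts before it in ageing leaves, had 14.8, 22 and 14.2 CPM on BAR and 46.7, 78.0 and 60 CPM in the control (-1.85 ± 0.27, adjusted p = 0.0044). Chlorophyllase-1 (DVH24_002883), an enzyme that removes the phytol tail, was higher, with 86.7, 35.8 and 99.9 CPM on BAR and 2.56, 0.119 and 0.544 CPM in the control (5.92 ± 0.89, adjusted p = 0.0047). The chlorophyll list as a whole had 3 higher and 8 lower of 36, and with library totals alone 8 higher and 4 lower. Without control replicate 1 it had 10 higher and 9 lower, and without BAR replicate 3, 1 higher and 2 lower.

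Other hormone pathways differed mainly gene by gene. Of 114 ethylene and ERF genes 23 rose and 23 fell, of 49 jasmonate genes 10 rose and 9 fell, and of 50 abscisic acid and dehydration genes 9 rose and 11 fell. With library totals alone these lists gave 34 higher and 19 lower, 14 higher and 6 lower, and 14 higher and 9 lower, in the same order. Without control replicate 1 they gave 46 higher and 30 lower, 21 higher and 13 lower, and 20 higher and 17 lower, and without BAR replicate 3 the number lower was 8 for ethylene and 4 for abscisic acid genes. The calls over all genes rose too without control replicate 1, to 6804 higher and 5852 lower. A gene named as a homolog of ACC oxidase (DVH24_003003) had 1.93, 3.80 and 2.20 CPM on BAR and 28.2, 32.1 and 30.3 CPM in the control (-3.46 ± 0.30, adjusted p = 0.0016). The gene named for ACC oxidase itself (DVH24_032391), the ethylene-forming enzyme, did not pass the test, with 1120, 1080 and 1100 CPM on BAR and 742, 246 and 235 CPM in the control (1.43 ± 0.48, adjusted p = 0.057). The abscisic acid 8'-hydroxylases, which break that hormone down, differed in direction. Abscisic acid 8'-hydroxylase 2 (DVH24_038614) had 31.7, 20.3 and 19.4 CPM on BAR and 1.82, 2.86 and 2.64 CPM in the control (3.23 ± 0.31, adjusted p = 0.0019). Abscisic acid 8'-hydroxylase 4 (DVH24_021634) had 3.11, 5.41 and 3.65 CPM on BAR and 16.5, 25.3 and 23.7 CPM in the control (-2.39 ± 0.30, adjusted p = 0.0031). Of 31 gibberellin genes 11 rose and 4 fell, with 7 higher without BAR replicate 1 or 3 or control replicate 2 or 3 and 18 without control replicate 1. The gibberellin receptor GID1B (DVH24_027175) was lower, with 66.0, 134 and 65.7 CPM on BAR and 468, 496 and 552 CPM in the control (-2.51 ± 0.34, adjusted p = 0.0036). The DELLA gene GAI (DVH24_030891), a repressor that this receptor helps to destroy, was higher, with 37.9, 37.5 and 35.4 CPM on BAR and 15.2, 13 and 16.6 CPM in the control (1.30 ± 0.17, adjusted p = 0.0035). Of 39 brassinosteroid genes 13 rose and 6 fell, with 6 higher without BAR replicate 1 or 3 and 10 lower without control replicate 1. The clock gene GIGANTEA (DVH24_009286) had 6.10, 6.09 and 4.50 CPM on BAR and 109, 234 and 246 CPM in the control (-5.11 ± 0.39, adjusted p = 0.0015). Every BAR library was below every control library for this gene.

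Few genes were called between BAR and control at 48 hour, and the effect of BAR differed between the times for many. At 48 hour 13 of 24002 genes (0.0542%) were called between BAR and control by edgeR, 2 higher and 11 lower, while 1353 had an unadjusted p under 0.05. The effect of BAR at 4 week minus its effect at 48 hour was tested in 1 model over 12 libraries. It was positive for 3259 of 25230 genes (12.9%) and negative for 2349 (9.31%). Values in the next sentences were scaled over all 18 libraries. LTL1 (DVH24_036863) stood at 27.7, 24.6 and 47.2 CPM on BAR and at 0 in the control at 4 week. At 48 hour it stood at 157, 254 and 224 CPM on BAR and at 316, 257 and 202 CPM in the control, with overlapping groups. Its level was thus lower at 4 week in both media. The difference of effects was 8.40 ± 0.53 on the log2 scale (adjusted p = 2.6e-05), a fitted value that depends on the prior count. XTH9 (DVH24_032287) stood at a like level on BAR at both times, with 203, 87.7 and 144 CPM at 4 week and 89.8, 108 and 110 CPM at 48 hour. In the control it had 2.24, 0 and 0.309 CPM at 4 week and 136, 114 and 117 CPM at 48 hour (difference of effects 7.40 ± 0.92, adjusted p = 0.00037).

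**Figure D5:**
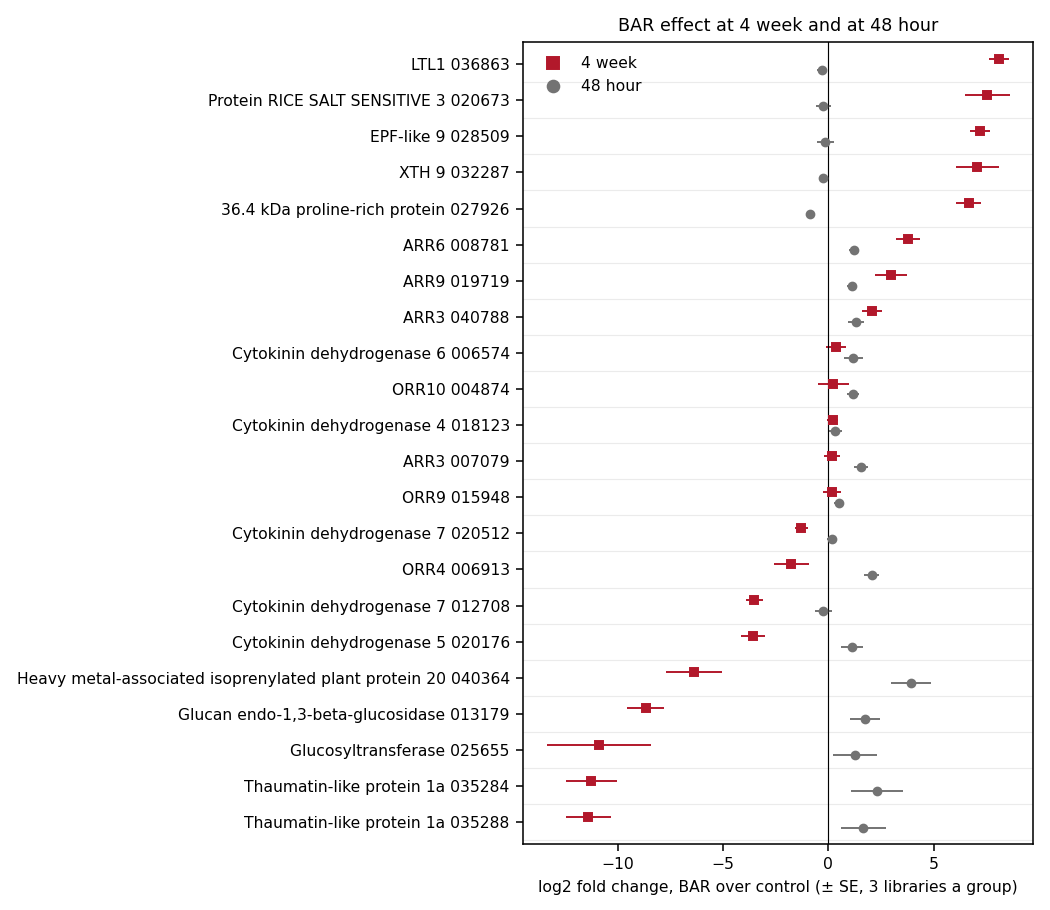
Log2 fold change of BAR over control (horizontal axis, with its SE) at 4 week (red squares) and at 48 hour (grey points), fitted from separate libraries of 3 a group, for the type-A response regulators, the cytokinin dehydrogenases and the genes with the most positive and most negative differences of effects. LTL1 lies at 8.11 at 4 week, a fitted value that depends on the prior count, and at -0.29 at 48 hour, and the thaumatin-like gene DVH24_035288 lies at -11.39 at 4 week and at 1.65 at 48 hour.

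The thaumatin-like gene DVH24_035288 had 1.15, 4.05 and 4.60 CPM on BAR and 2770, 10500 and 12200 CPM in the control at 4 week. At 48 hour it had 9.20, 138 and 7.73 CPM on BAR and 22.5, 1.93 and 24.9 CPM in the control (difference of effects -12.95 ± 1.89, adjusted p = 0.00091). By these levels, XTH9 and the thaumatin-like gene differed between the times more in the control shoots than in the BAR shoots. Among the type-A response regulators the difference of effects was positive for some genes and negative for others. ARR6 (DVH24_008781) had 7.26, 10.7 and 9.83 CPM on BAR and 0.374, 0.177 and 1.08 CPM in the control at 4 week. At 48 hour it had 64.1, 74.9 and 88.4 CPM on BAR and 28.5, 27.5 and 41.7 CPM in the control (2.66 ± 0.49, adjusted p = 0.0031). ORR4 (DVH24_006913) had 0, 0.554 and 0.374 CPM on BAR and 1.12, 0.649 and 2.01 CPM in the control at 4 week, against 15.1, 9.28 and 9.49 CPM on BAR and 1.95, 2.27 and 3.63 CPM in the control at 48 hour (-3.74 ± 0.88, adjusted p = 0.011). BAR was thus above the control at 48 hour and below it at 4 week in ORR4, although neither single difference was called. The ARR3 gene DVH24_007079 had 6.68, 6.21 and 5.99 CPM on BAR and 7.10, 5.55 and 2.71 CPM in the control at 4 week. At 48 hour it had 131, 93.5 and 84.5 CPM on BAR and 32.3, 19.8 and 54.4 CPM in the control, and the difference of effects did not pass (-1.27 ± 0.52, adjusted p = 0.1). In ARR6 and this ARR3 gene all BAR levels at 4 week were below all control levels at 48 hour. Among the lists, the difference of effects was positive for 16 and negative for 0 of 33 Aux/IAA genes, and positive for 2 and negative for 37 of 92 heat shock genes. It was positive for 32 and negative for 6 of 72 cuticle and wax genes.

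TDZ, a phenylurea and not an adenine derivative, was given at the same dose for the same time, so BAR and TDZ shoots can be set side by side. By edgeR with all 6 libraries 0 of 24207 genes were called between BAR and TDZ at 4 week, with 4594 at an unadjusted p under 0.05, and DESeq2 called 2934. The library labelled TDZ, 4 week, replicate 3 resembled the control libraries, at Spearman correlations of 0.932 to 0.936, more than the other TDZ libraries, at 0.781 and 0.777. Without it 6964 of 25306 genes (27.5%) were called, with 2 TDZ libraries left. Of 10 type-A response regulators tested then, 9 were lower on BAR than on TDZ, while ORR9 (DVH24_015948) was not called (-0.49 ± 0.19, adjusted p = 0.1). The ARR3 gene DVH24_007079 had 6.68, 6.21 and 5.99 CPM on BAR, against 141, 88.3 and 5.44 CPM on TDZ (BAR minus TDZ -4.15 ± 0.23 without TDZ replicate 3, adjusted p = 0.00043). ARR6 (DVH24_008781) had 7.26, 10.7 and 9.83 CPM on BAR, against 139, 118 and 1.01 CPM on TDZ (-3.77 ± 0.21, adjusted p = 0.00043). In both genes TDZ replicate 3 was low and TDZ replicates 1 and 2 were above all BAR libraries. With all 3 TDZ libraries neither gene was called, with an adjusted p of 0.27 for ARR6. The dehydrogenase gene CKX3 (DVH24_029452) had 0.0576, 0 and 0.160 CPM on BAR, against 218, 188 and 0.0632 CPM on TDZ.

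Of 3 further genes called against the control and picked out after their values were seen, 2 were not called between BAR and TDZ and 1 was. GROWTH-REGULATING FACTOR 7 (DVH24_024974) had 52.4, 26.4 and 36.4 CPM on BAR, against 42.4, 38.7 and 0.442 CPM on TDZ (-0.07 ± 0.27 without TDZ replicate 3, adjusted p = 0.88). Phenylalanine ammonia-lyase 1 (DVH24_004645) had 109, 240 and 146 CPM on BAR, against 228, 224 and 1070 CPM on TDZ (-0.44 ± 0.33, adjusted p = 0.36). The 95% interval of the difference ran from -0.72 to 0.58 for the growth-regulating factor and from -1.21 to 0.33 for the ammonia-lyase, so differences within these bounds could not be told from 0. Cyclin-U4-1 (DVH24_025870) was higher on BAR than on TDZ, with 11, 12.3 and 14.3 CPM on BAR and 3.12, 2.00 and 0 CPM on TDZ (2.26 ± 0.28 without TDZ replicate 3, adjusted p = 0.0024).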

How the data were processed

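Counts per gene, as whole numbers, were taken from the deposited table, which the authors made, per the submitters' processing notes, with CASAVA, HISAT2 2.0.5 and featureCounts 1.5.0-p3. The deposited FPKM table holds the authors' length-scaled values and entered no test. The genome build and annotation, and the strandedness of counting, were not given in the sources used here. No positions are printed, and overlapping or near-identical genes may share reads. Protein names come from the Swiss-Prot column of that table, filled for 27453 of 42841 genes, and tell the family only.

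Groups were taken from the labels. The test was the quasi-likelihood test of edgeR 4.0.16 under R 4.3.3 on TMM-scaled counts, with filterByExpr at a minimum count of 10 and a minimum total of 15, on the 6 libraries of BAR and control at 4 week, with Benjamini-Hochberg adjustment over the 23418 genes that passed. Log2 fold changes are BAR over control, with their SE and a prior count of 2, and a group at 0 was set to a floor of 3 counts, which covers counting error only. The difference of effects between times used 12 libraries and the comparison with TDZ used 6. On simulated data with known changes, over 23126 genes, 0% of 1.5-fold, 12% of 2-fold, 84% of 4-fold and 92% of 8-fold changes were recovered at this size, with 2 false calls. The simulation changed 50 genes per fold, gave every gene the same spread and held no library that stood apart like control replicate 1. In the data 33.2% of the genes tested were called, so these shares and false calls need not hold there.

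The 48 gene lists were drawn by protein name. The comparison, the lists and the genes were chosen with earlier results of these data known. Named genes were the 12 highest and 12 lowest called fold changes with a protein name, at least 5 CPM in the higher group and no overlap, all type-A response regulators and cytokinin dehydrogenases, up to 4 called genes of smallest p and the gene with the most counts in each list, and the 5 highest and 5 lowest differences of effects. Others are said to have been picked out after their values were seen. Alternatives were DESeq2 1.42.0, limma-voom 3.58.1, other scaling, filters and sets of libraries, a replicate block and leaving out each library.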

Additional observations from a re-analysis of the deposited data

Results flagged for a closer look

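The effect of BAR at 4 week differed from its effect at 48 hour for 5608 of 25230 genes by a test of the difference itself (edgeR, adjusted p under 0.05). It was positive for 12.9% of the genes tested and negative for 9.31%. The 16 genes given here are a chosen part of these. They were taken from the most extreme differences and from the type-A response regulators and cytokinin dehydrogenases. Both effects have their own control libraries. Where a gene was at or near 0 in a group the fitted difference depends on the prior count. The 5 highest differences on the log2 scale among genes that met the rule for named genes were 8.40 for LTL1 (DVH24_036863), 7.86 for RICE SALT SENSITIVE 3 (DVH24_020673), 7.35 for EPIDERMAL PATTERNING FACTOR-like 9 (DVH24_028509), 7.40 for the XTH9 gene DVH24_032287 and 7.59 for the 36.4 kDa proline-rich protein gene DVH24_027926. Among genes lower on BAR at 4 week the difference was -12.95 and -13.46 for the thaumatin-like genes DVH24_035288 and DVH24_035284, -12.05 for the glucosyltransferase gene DVH24_025655, -10.31 for the glucanase gene DVH24_013179 and -10.22 for the heavy metal-associated protein gene DVH24_040364. These 10 genes kept their sign and their call in all 18 alternatives tried for the difference.

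Among cytokinin genes the difference was 2.66 for ARR6 (DVH24_008781), 1.92 for ARR9 (DVH24_019719) and -3.74 for ORR4 (DVH24_006913). It was -1.39 and -3.18 for the CKX7 genes DVH24_020512 and DVH24_012708 and -4.62 for the CKX5 gene DVH24_020176. All kept their sign in the 18 alternatives, but the call held in 17 for ARR6, 17 for ORR4, 13 for the CKX7 gene DVH24_020512 and 5 for ARR9.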

How the results depend on the processing

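Against 7784 genes called between BAR and control at 4 week, a test against a 2-fold threshold called 2285, a fit of the 9 libraries of 4 week 4579 and BAR replicates 1 and 3 summed as 1 library 3812, with fewer samples in the last. DESeq2, limma-voom, RLE scaling, no filter, all 18 libraries, 17 libraries and library totals alone stayed within 1.5 times of the main count. Leaving out each library gave 3491 (without BAR replicate 1) to 13102 (without control replicate 1), and the cause was not tested. For the difference of effects between times, 5608 were called, 2968 with all 18 libraries in the fit, and 3735 to 8748 when a library was left out. Between BAR and TDZ at 4 week, 0 were called, 2189 with all 18 libraries, 2934 by DESeq2, and 0 to 6964 when a library was left out, the highest without TDZ replicate 3. Over the 2771 list members tested 1136 were called, and 617 to 1743 when a library was left out.

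Libraries with the same replicate number showed no shared deviation from their group means (correlations of -0.0469, -0.0457 and 0.0111). Libraries with unlike numbers gave -0.0443 to 0.0572. With 3 libraries a group and control replicate 1 apart from the others, these values cannot exclude shared handling by number. A replicate block called 5850 genes at 4 week, 4465 for the difference of effects and 0 between BAR and TDZ.

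Of 106 called genes named in the text, 77 kept their call in every alternative and 0 changed direction. Among the genes not called, leaving out each library gave -0.02 to 0.63 for CKX6 (DVH24_006574), -0.24 to 1.12 for ORR10 (DVH24_004874), -0.09 to 0.83 for ORR9 (DVH24_015948), which was -0.04 without control replicate 3, and -0.11 to 0.48 for ARR3 (DVH24_007079). HISTIDINE KINASE 3 (DVH24_025102) had 0.08 with library totals alone. Depth limits genes of few counts, such as SHOOT MERISTEMLESS and CKX3, which were not testable.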

Other observations

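Phloem genes, not described above, were mixed, with 10 of 37 tested higher and 4 lower on BAR. Sieve element occlusion proteins, which plug sieve tubes after wounding, went one way, since 7 of 9 tested were higher and 0 lower. They summed to 54.8 to 60.7 CPM in the BAR libraries and to 8.55 to 16.2 CPM in the control libraries, whereas PHLOEM PROTEIN 2 genes summed to 152 to 179 CPM on BAR and 164 to 186 CPM in the control, with 0 of 6 called. SIEVE ELEMENT OCCLUSION B (DVH24_013431) had 11, 5.57 and 5.05 CPM on BAR and 0.160, 0.476 and 0.466 CPM in the control (log2 fold change 3.95 ± 0.53, adjusted p = 0.0035). CALLOSE SYNTHASE 11 (DVH24_017223) fell, with 36.1, 41.3 and 44.5 CPM on BAR and 125, 163 and 149 CPM in the control (-1.84 ± 0.19, adjusted p = 0.0021). Of 39 class III peroxidases, enzymes of the cell wall, 13 rose and 6 fell, with 8 higher without BAR replicate 2 or control replicate 3 and 23 without control replicate 1. Peroxidase 42 (DVH24_011719) had 354, 562 and 324 CPM on BAR and 104, 41.7 and 45 CPM in the control (2.70 ± 0.44, adjusted p = 0.0057).

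Of 74 NAC transcription factors 17 rose and 19 fell, with 6 higher without BAR replicate 1 and 8 lower without BAR replicate 1 or 3. The NAC gene JA2L (DVH24_003183) had 11.1, 33 and 12.4 CPM on BAR and 139, 830 and 872 CPM in the control (-5.02 ± 0.84, adjusted p = 0.0062). Of 105 metal homeostasis genes 23 rose and 28 fell, with 35 higher without control replicate 1 and 16 lower without BAR replicate 1 or 3. Metallothionein type 3 (DVH24_003649), a small metal-binding protein, had 1640, 3190 and 546 CPM on BAR and 12900, 7300 and 6240 CPM in the control (-2.30 ± 0.69, adjusted p = 0.04). This call ended without control replicate 2 or 3 or BAR replicate 1 or 3 (-2.49 to -1.85). PHOTOTROPIN-1 (DVH24_006026), a blue light receptor, had 450, 330 and 447 CPM on BAR and 138, 92.4 and 88.0 CPM in the control (1.94 ± 0.27, adjusted p = 0.0038), in a list of clock and light receptor genes with 16 of 73 higher and 11 lower. Without BAR replicate 1 or 3 that list had 8 higher and 5 lower, and without control replicate 1 it had 27 higher and 20 lower. Of 243 cytosolic ribosomal proteins 7 were higher and 31 lower, but 35 were higher and 7 lower with library totals alone, and 3 were lower without BAR replicate 3. Over all genes tested 16.5% were higher and 16.7% lower. The shares higher and lower were 27.0% and 10.8% for phloem genes and 33.3% and 15.4% for the peroxidases. They were 23.0% and 25.7% for NAC factors and 21.9% and 26.7% for metal homeostasis genes. Clock and light receptor genes gave 21.9% and 15.1%, and ribosomal proteins 2.88% and 12.8%. No further test was made.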
